A study of Mus musculus with 4 samples.

Results

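The homing receptors examined here are 10 genes that encode G protein-coupled receptors for chemokines and for lipid chemoattractants, namely Cxcr5, Cxcr4, Ccr7, Ccr6, Ccr9, S1pr1, S1pr3, S1pr4, Gpr183 and Cnr2. They were taken by name, and not by a threshold on a value, out of 20599 gene symbols. The choice was made with earlier results of these data known. Their transcripts were compared between B1a and B2 cells by RNA-Seq of peritoneal B1a cells (n = 2) and splenic follicular B2 cells (n = 2), and the study's libraries of Dnmt3a-deficient B cells were not analyzed here. The mice of both groups were wild-type at Dnmt3a and of the C57BL/6 strain, and the study's methods describe them as littermate controls. The labels give an age of 4 weeks for all 4 samples, whereas the methods give 4 weeks for B1a and 8 weeks for B2. A supplementary legend of the study, on repertoires taken from RNA-Seq reads, gives 4 weeks for both cell types. B1a cells were sorted from peritoneal washes as IgM+ CD5+ cells without CD23, and B2 cells from spleen as CD21+ cells with high IgD and low IgM, and the methods allow fewer sorted cells for a B1a library than for a B2 library. The groups thus differ at once in cell type, in tissue and perhaps in age, which cannot be told apart.

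B cells find their place in the body by following gradients that such receptors read. CXCR5 binds CXCL13 and brings B cells into lymphoid follicles and into the body cavities, CXCR4 binds CXCL12 of marrow and splenic red pulp, CCR7 binds CCL19 and CCL21 of the T zone, CCR6 binds CCL20, and CCR9 binds CCL25 of gut and thymus. Sphingosine 1-phosphate receptors respond to a lipid that is abundant in blood and lymph and scarce inside lymphoid tissue, and S1PR1 is the receptor through which lymphocytes leave it. GPR183, also called EBI2, binds oxysterols made by stromal cells and moves B cells to the edges of the follicle, and CNR2, the cannabinoid receptor CB2, binds the endocannabinoid 2-arachidonoylglycerol. Most of these receptors signal through the inhibitory Gi proteins.

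The totals were between 11032732 and 18588623 counts per library, at which 3 counts, used here as the smallest amount told from none, equal 0.161 to 0.272 CPM (reads of a gene scaled to the same total in every library). The floor reflects counting error alone. Replicates resembled each other less in B1a than in B2 cells, with a Pearson correlation of log2 CPM across genes of 0.836 in B1a and 0.966 in B2 against 0.788 to 0.858 between the groups, and 200 genes had at least 100 counts in one B1a library and at most 3 in the other. All 7 pan-B cell markers were detected in every library. Of the 7 B1a markers 6 were called higher in B1a cells. The sorted marker Cd5 was higher in both B1a libraries but not called, with 15.9 and 22.4 CPM in B1a against 5.46 and 2.25 in B2 (adjusted p = 0.146). Of the 6 follicular markers 4 were called higher in B2 cells, among them Cr2 and Fcer2a, which encode the CD21 and CD23 used for sorting. The summed macrophage markers were 193 and 252 CPM in B1a against 66.1 and 69.2 in B2, where 1 of the 7 tested, Lyz2, was called higher in B1a and the median log2 fold change was 1.69. Emr1, which encodes F4/80, had 27.7 and 39.0 CPM in B1a against 8.23 and 11.9 in B2 (adjusted p = 0.0891), while Fcgr1 had 0 counts in both B1a libraries and 5 and 0 in B2. The summed erythroid markers were 78.7 and 504 CPM in B1a against 36.1 and 80.8 in B2, with a median log2 fold change of 2.22 and 1 of 5, Hba-a2, called higher in B1a (adjusted p = 0.0278). The part of either marker list in the receptor values was not tested.

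All 10 receptor genes had enough counts to be tested, and they split in direction. Transcripts of Cxcr5 and S1pr1 were higher in B1a cells, those of Cxcr4, Ccr6 and Cnr2 were higher in B2 cells, and 5 receptors did not pass the test. Genes were tested with edgeR's quasi-likelihood test, p-values were adjusted by the Benjamini-Hochberg method over 12078 genes, and a gene was called at an adjusted p under 0.05. Among all tested genes 5.74% were called, 4.24% higher in B1a and 1.50% higher in B2. The receptors had 2 of 10 beside 4.24% and 3 of 10 beside 1.50%. As the receptors were chosen with earlier results of these data known, these shares are a description and no test of an excess. The libraries of the 2 groups did not overlap for 8 of the 10 receptors, a weaker statement, since the same was true of 54.3% of all tested genes, 25.3% with both B1a libraries higher and 29.0% with both B2 libraries higher. In a bulk sample fewer cells carrying a transcript and less of it per cell cannot be told apart.

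**Figure D1:**
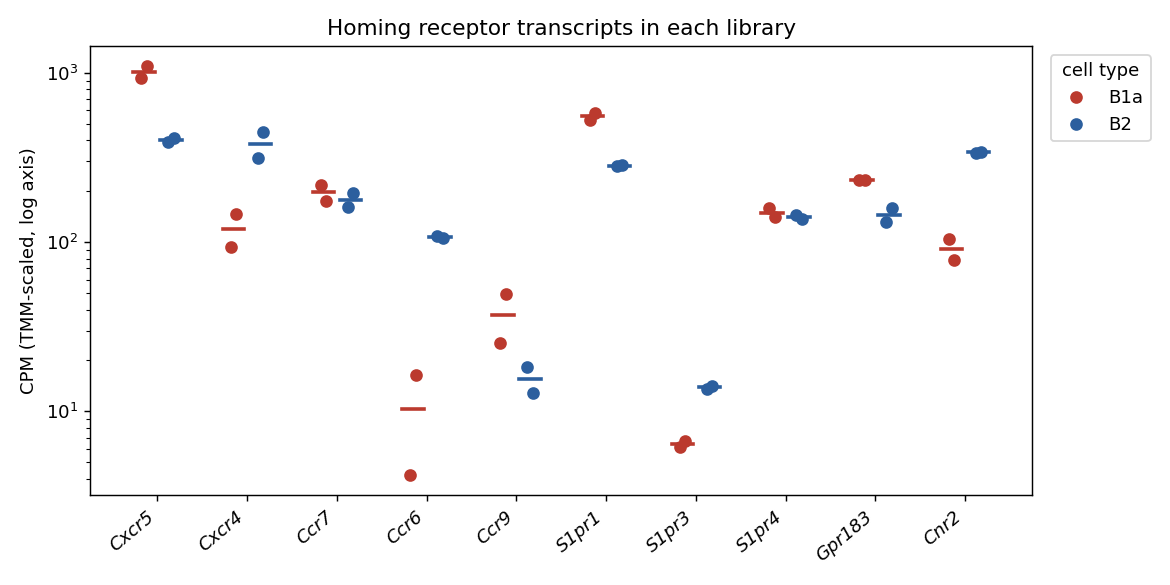
CPM (TMM-scaled, log axis) of the 10 receptor genes, with a point for each library, B1a in red and B2 in blue, and a bar at the mean of each group. The pairs of points lie apart for 8 receptors and overlap for Ccr7 and S1pr4; the 2 B1a libraries of Ccr6, at 4.21 and 16.4 CPM, are the most spread.

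The 3 receptors that were higher in B2 cells are shown with the 250 bases before a start of their gene entry in RefSeq (GRCm38.p6), so that their start regions can be set side by side. In the Cxcr4 window, chr1:128592300-128592549 on the minus strand, capitals mark each CpG. In the Ccr6 window, chr17:8235793-8236042 on the plus strand, and in the Cnr2 window, chr4:135894939-135895188 on the plus strand, capitals mark the octamer ATGCAAAT of POU factors, which lies in both on the opposite strand and so reads ATTTGCAT.
Cxcr4: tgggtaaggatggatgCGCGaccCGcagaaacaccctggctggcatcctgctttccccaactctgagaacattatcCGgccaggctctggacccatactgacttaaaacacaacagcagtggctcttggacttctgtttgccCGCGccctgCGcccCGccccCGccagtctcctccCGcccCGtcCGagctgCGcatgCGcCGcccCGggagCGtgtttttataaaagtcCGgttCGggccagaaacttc
Ccr6: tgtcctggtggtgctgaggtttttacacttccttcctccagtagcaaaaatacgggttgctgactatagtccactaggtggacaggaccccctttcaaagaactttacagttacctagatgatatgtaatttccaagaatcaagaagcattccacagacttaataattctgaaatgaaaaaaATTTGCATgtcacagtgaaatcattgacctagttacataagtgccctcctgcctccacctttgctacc
Cnr2: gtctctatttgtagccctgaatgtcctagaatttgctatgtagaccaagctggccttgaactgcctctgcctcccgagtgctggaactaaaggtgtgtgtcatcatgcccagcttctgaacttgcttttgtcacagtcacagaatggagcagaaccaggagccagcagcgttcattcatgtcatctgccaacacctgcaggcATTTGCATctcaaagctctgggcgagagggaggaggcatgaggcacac
The Cxcr4 window held 19 CpG at a GC content of 61.2%, the Ccr6 window 1 CpG at 41.2% and the Cnr2 window 3 CpG at 51.6%, where the median of 32851 RefSeq promoter windows of this length was 6 CpG at 52.4%. At least as many CpG as in Cxcr4 were found in 19.7% of all windows. The octamer ended 60 bases before the Ccr6 start and 40 bases before the Cnr2 start, and 1.6% of all windows held it on either strand. It was in no other window of the 7 receptors that had one, including those of a second start of Ccr6 (chr17:8242276-8242525) and of Cnr2 (chr4:135911430-135911679). No window of these 7 held the AP-1 motif TGACTCA (4.46% of all windows), the E-box CACGTG (6.02%) or the KLF motif CACACCC (6.93%). Cxcr5 and S1pr1, the receptors higher in B1a, and Ccr7 had no window and were not searched for any motif. Of the windows of Cxcr4, Ccr6 and Cnr2, only that of the second Ccr6 start was matched to the start of a counted transcript. The printed windows need not lie before the start of the transcripts measured. The windows of the second starts had 7 CpG for Ccr6 and 3 for Cnr2, and those of the other receptors had 9 for S1pr3, 3 for Ccr9, 2 for Gpr183 and 0 for S1pr4. A match of letters is a description of the window and no measurement of binding.

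Cxcr5 (chr9:44511787-44526444, minus strand), the CXCL13 receptor of follicular homing, had 939 and 1094 CPM in the B1a libraries and 392 and 410 CPM in the B2 libraries. Both B1a libraries lay far above both B2 libraries. The mean was 1016 ± 109 CPM in B1a and 401 ± 12.6 CPM in B2 (SD, n = 2 each), 2.53-fold higher in B1a, with a log2 fold change of 1.34 (SE 0.12, 95% interval 1.04 to 1.64, adjusted p = 0.00428). It was the most abundant of the 10 transcripts in B1a cells per length. Exons of Cxcr5 overlap those of Bcl9l on the opposite strand, and as the strand setting of the counting is not given in the sources used here, reads from the overlap cannot be told apart; Bcl9l itself was at 116 and 54.6 CPM in B1a against 155 and 162 CPM in B2 (log2 fold change -0.89, adjusted p = 0.224).

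Cxcr4 (chr1:128588199-128592299, minus strand), which retains B cells near sources of CXCL12, went the other way. Its values were 94.1 and 146 CPM in B1a and 314 and 448 CPM in B2. Replicates of either group were more scattered than for Cxcr5, and still the highest B1a library stayed below the lowest B2 library. The log2 fold change was -1.67 (SE 0.27, 95% interval -2.33 to -1.0002, adjusted p = 0.0254), a 3.17-fold higher level in B2. The order of both CXC receptors differed between the groups in every library: the TPM of Cxcr5 divided by the TPM of Cxcr4 was 6.83 and 5.13 in the B1a replicates, and 0.854 and 0.627 in the B2 replicates.

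Ccr7 (chr11:99144199-99155077, minus strand), the receptor for T zone chemokines, had 219 and 176 CPM in B1a and 162 and 194 CPM in B2. The ranges crossed, with a B2 library above a B1a library. The log2 fold change was 0.15 (SE 0.18, adjusted p = 0.72), and its 95% interval of -0.28 to 0.58 leaves room for a difference of either sign. The sign itself turned to -0.10 on the log2(TPM + 1) scale and to -0.02 without B1a replicate 1.

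Ccr6 (chr17:8236041-8258519, plus strand), the CCL20 receptor, differed most of the 10 in fold. It had 4.21 and 16.4 CPM in the B1a libraries, that is 47 and 183 counts, against 109 and 105 CPM in B2. The B2 values were nearly equal while those of B1a differed 3.9-fold in CPM, both far below B2. B2 cells had 10.4-fold more, with a log2 fold change of -3.37 (SE 0.62, 95% interval -4.89 to -1.86, adjusted p = 0.0356). The size rested on which B1a library was used: it was -2.71 without B1a replicate 1 and -4.67 without B1a replicate 2. On the log2(TPM + 0.1) scale, with limma, the adjusted p was 0.0506.

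Ccr9 (chr9:123767211-123783457, plus strand), the receptor for CCL25, had 25.4 and 49.2 CPM in B1a and 18.2 and 12.9 CPM in B2. Both B1a libraries were higher than both B2 libraries, yet the B1a replicates differed 1.94-fold in CPM. RefSeq places the RNA genes Gm17021 across Ccr9 and Gm33799 across Ccr6, whose part in these counts was not tested. The log2 fold change was 1.27 (SE 0.46, 95% interval 0.14 to 2.39), and the adjusted p of 0.192 did not pass. Without B1a replicate 1 it was 1.67 with an adjusted p of 8.04e-09, in a fit that assumes that the remaining B1a library varies like the B2 libraries, and without B1a replicate 2 it was 0.72 with an adjusted p of 0.0507.

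**Figure D2:**
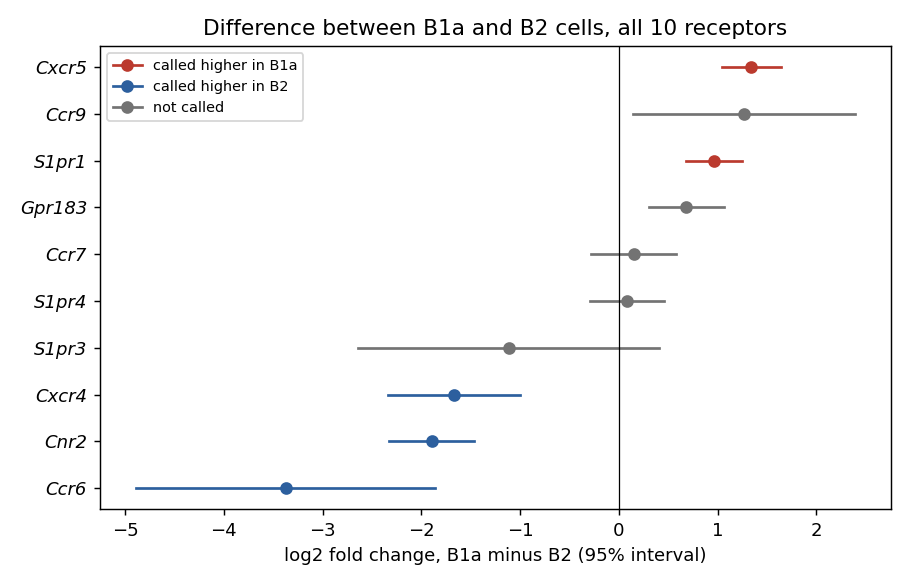
Log2 fold change of each receptor, B1a minus B2, from edgeR (point) with its 95% interval (line), ordered by size, in red where called higher in B1a, blue where called higher in B2 and gray otherwise. Cxcr5 and S1pr1 lie on the B1a side and Cxcr4, Cnr2 and Ccr6 on the B2 side, and the interval of Ccr6, from -4.89 to -1.86, is among the widest.

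Of the receptors for sphingosine 1-phosphate, S1pr1 (chr3:115710433-115715055, minus strand), the receptor of egress, was higher in B1a cells. The libraries had 531 and 577 CPM in B1a and 280 and 287 CPM in B2, with replicates close together in both groups and a clear gap between them. The log2 fold change was 0.96 (SE 0.12, 95% interval 0.68 to 1.247, adjusted p = 0.00904), a 1.95-fold higher level in B1a. This change would not pass a minimum of 1 on the log2 scale.

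S1pr3 (chr13:51408618-51422797, plus strand), known from marginal zone B cells, was the least abundant of the 10 per length in B1a cells. It had 6.18 and 6.65 CPM in B1a, from 69 and 74 counts, and 13.6 and 14.2 CPM in B2, from 157 and 272 counts. Both B2 libraries were about equally far above both B1a libraries. The log2 fold change of -1.12 (SE 0.62, 95% interval -2.64 to 0.41, adjusted p = 0.389) was not called. It ran from -1.17 to -1.07 with a library left out. Exons of S1pr3 overlap the antisense RNA gene Gm32834, from which its reads cannot be told apart here.

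S1pr4 (chr10:81497745-81500137, minus strand), a receptor found mainly on leukocytes, had 158 and 141 CPM in B1a and 144 and 138 CPM in B2. The groups overlapped. Its log2 fold change was 0.09 (SE 0.15, 95% interval -0.29 to 0.46, adjusted p = 0.83), and the sign turned to -0.16 on the log2(TPM + 1) scale and to -0.0049 without B1a replicate 1. A change beyond 1 on the log2 scale lay outside the intervals of both S1pr4 and Ccr7.

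Gpr183 (chr14:121952331-121965193, minus strand), the oxysterol receptor EBI2, had 233 and 232 CPM in B1a and 131 and 159 CPM in B2. The B1a libraries were almost equal and both above B2. The mean was 1.60-fold higher in B1a, with a log2 fold change of 0.68 (SE 0.15, 95% interval 0.30 to 1.06), and the adjusted p of 0.0671 was just short of the threshold. Gpr183 was the receptor whose call depended most on the setting, as it passed in 5 of 10 alternative settings that used all 4 libraries, with an adjusted p of 0.00622 in DESeq2 and 0.0398 in limma-voom. With a library left out its log2 fold change ran from 0.55 to 0.82.

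Cnr2 (chr4:135895189-135920219, plus strand), the cannabinoid receptor CB2, had 104 and 78.6 CPM in B1a and 336 and 343 CPM in B2. Each B2 library exceeded each B1a library by a wide margin. The level was 3.72-fold higher in B2, with a log2 fold change of -1.90 (SE 0.18, 95% interval -2.33 to -1.46, adjusted p = 0.0044). Cnr2 had the smallest adjusted p of the 3 receptors that were higher in B2.

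**Figure D3:**
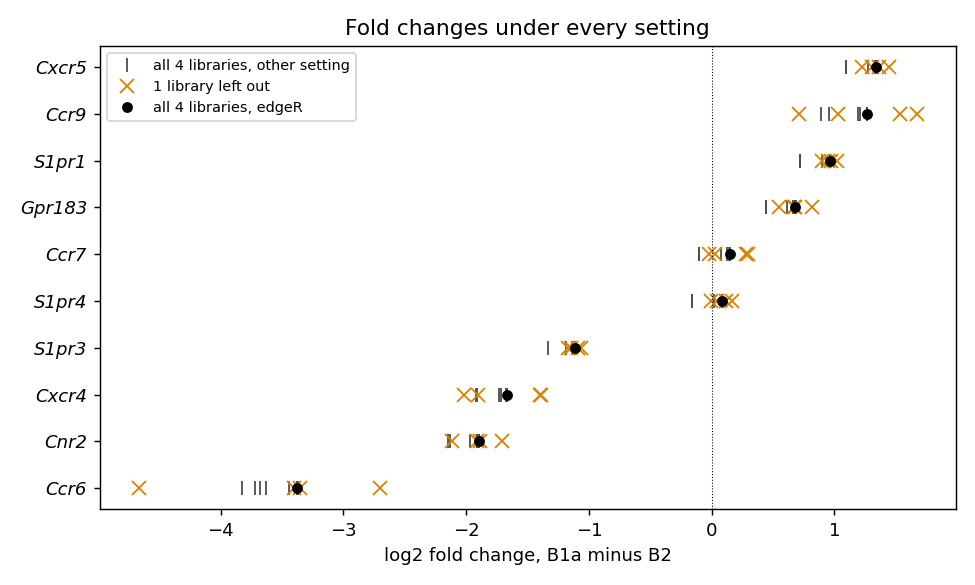
Log2 fold change of each receptor, B1a minus B2, in edgeR with all 4 libraries (black point), under other settings with all 4 libraries (gray ticks) and with 1 library left out (orange crosses). Cxcr5, S1pr1, Gpr183 and Ccr9 stay above 0 and Cxcr4, Cnr2, Ccr6 and S1pr3 below 0 throughout, while Ccr7 and S1pr4 cross it; Ccr6 spreads from -4.67 to -2.71 when a library is left out.

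Levels of different receptors can be set side by side per length, in TPM (the deposited value, which is corrected for transcript length and sums to the same total in every library). In B1a cells Cxcr5 led with 912 ± 82.1 TPM (SD, n = 2), above 98.8% of tested genes, and S1pr1 followed with 427 ± 17.6 TPM and Ccr7 with 237 ± 40.2 TPM. Below them came Gpr183 (185 ± 4.01 TPM), Cxcr4 (157 ± 45.3 TPM) and S1pr4 (147 ± 14.9 TPM). Cxcr4 overlapped both others in its library values and could not be ordered against them. Gpr183, at 188 and 182 TPM, lay above S1pr4, at 158 and 137 TPM. Cnr2 had 55.0 ± 11.7 TPM, Ccr9 19.8 ± 8.49 TPM and Ccr6 15.5 ± 11.9 TPM, the last pair again overlapping, and S1pr3 was lowest with 3.32 ± 0.113 TPM.

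In B2 cells the order began differently, with Cxcr4 at 589.5 ± 139 TPM, above 98.4% of tested genes, ahead of Cxcr5 at 425.5 ± 8.55 TPM. S1pr1 (259 ± 1.65 TPM), Ccr7 (254 ± 30.0 TPM) and Cnr2 (241 ± 1.18 TPM) formed a level group in which S1pr1 and Ccr7, and Ccr7 and Cnr2, were not apart. Ccr6 had 187 ± 14.1 TPM, S1pr4 164 ± 6.92 TPM and Gpr183 136 ± 17.0 TPM, each apart from the next. Ccr9 (9.88 ± 2.50 TPM) and S1pr3 (8.50 ± 0.170 TPM) were lowest and overlapped. Ccr6 moved most on this scale, from above 34.8% of tested genes in B1a to above 92.8% in B2.

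Summed over the 10 receptors the TPM were 2092 and 2226 in the B1a libraries and 2151 and 2398 in the B2 libraries. On this scale the groups overlapped in the sum and differed in its make-up. The overlap depends on the scale, as log2 fold changes of the receptors lay lower in TPM than in CPM. That of Cxcr5 was 1.09 on log2(TPM + 1) against 1.34, and that of Cxcr4 -1.91 against -1.67. Cxcr5 made up 40.8% and 43.6% of the sum in B1a and 19.5% and 18.0% in B2. Cxcr4 accounted for 5.97% and 8.49% in B1a and 22.8% and 28.7% in B2. The share of S1pr1 was 19.8 ± 0.0523% in B1a and 11.4 ± 0.802% in B2, and that of Cnr2 was 2.56 ± 0.653% and 10.6 ± 0.763% (SD, n = 2 each). Ccr6 contributed 0.708 ± 0.52% in B1a and 8.28 ± 1.255% in B2, while Ccr7 held 11.04 ± 2.34% and 11.1 ± 0.464%. These shares are fractions of the 10 genes alone and are not independent of each other.

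**Figure D4:**
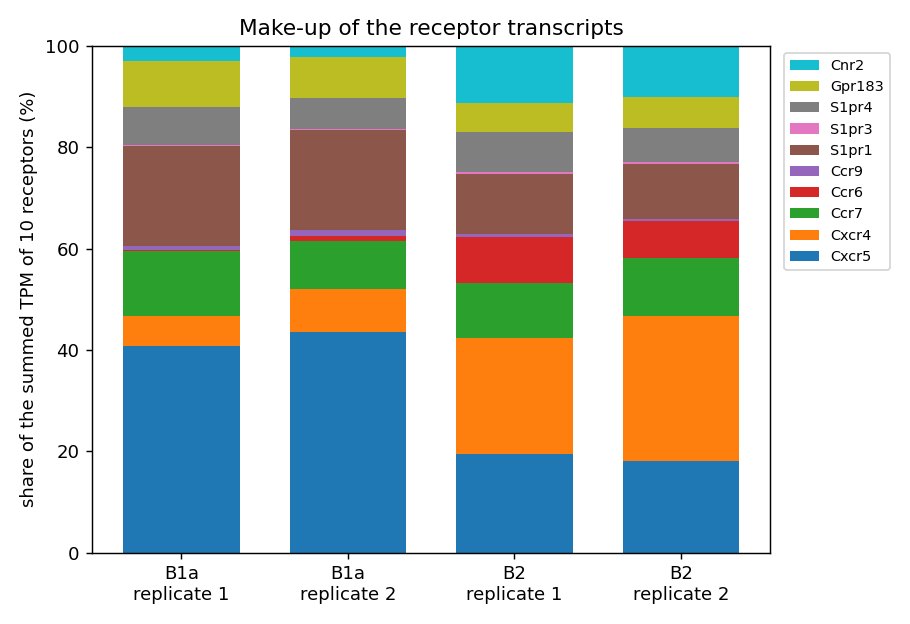
Share (%) of each receptor in the summed TPM of the 10 receptors, as a stacked bar for each library. Cxcr5 fills 40.8% and 43.6% of the B1a bars and 19.5% and 18.0% of the B2 bars, where Cxcr4, Ccr6 and Cnr2 take larger parts.

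Genes that act on S1pr1 were read beside it. Klf2 encodes a transcription factor known to drive S1pr1 transcription, and it had 1365 and 1280 CPM in B1a against 494 and 501 CPM in B2. Its part in the S1pr1 values of these cells was not tested. Like S1pr1, Klf2 was higher in both B1a libraries, with a log2 fold change of 1.41 (SE 0.10, 95% interval 1.16 to 1.66, adjusted p = 0.00236). Cd69 encodes a membrane protein that holds S1PR1 off the cell surface, and had 101 and 180 CPM in B1a and 56.3 and 72.4 CPM in B2, a log2 fold change of 1.12 (SE 0.31) that did not pass (adjusted p = 0.116). With all 4 libraries Cd69 passed in 3 of 10 alternative settings, among them DESeq2 (0.0115) and no filter on low counts (0.0166). Its log2 fold change ran from 0.64 to 1.48 with a library left out. Sgpl1, the lyase that degrades sphingosine 1-phosphate, had 278 and 328 CPM in B1a and 96.6 and 86.7 CPM in B2 (log2 fold change 1.73, SE 0.16, adjusted p = 0.00428). It was the single gene called among 13 tested for the metabolism and transport of this lipid, beside 5.74% of all tested genes. The median log2 fold change of the 13 was -0.01 beside -0.03 for all tested genes.

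Around Cnr2, 1 of 9 tested genes of endocannabinoid metabolism was called, beside 5.74% of all tested genes. This was Faah, the hydrolase of fatty acid amides such as anandamide, with 149 and 132 CPM in B1a and 29.6 and 31.4 CPM in B2 (log2 fold change 2.21, SE 0.20, adjusted p = 0.00402), opposite in direction to Cnr2. The median of the 9 was 1.06 beside -0.03 for all tested genes. Mgll went in the direction of Cnr2, the only one of the 9 to do so. It had 0 counts in both B1a libraries and 11 and 34 in B2. By counting error alone, that was at least 5.07-fold higher in B2 against a floor of 3 counts per library (adjusted p = 0.197 in edgeR). The spread between replicates is left out of such a bound. Around Gpr183, Ch25h, Cyp7b1 and Cyp46a1, which make its oxysterol ligands or related ones, were at 0 in all 4 libraries. Cyp27a1, of the same list, was detected in every library, with 50 and 129 counts in B1a and 212 and 230 in B2. Its log2 fold change was -0.92 (adjusted p = 0.549 in edgeR). Hsd3b7, which degrades the ligand, had 0 counts in both B1a libraries and 39 and 116 counts in B2. By counting error alone, this was at least 17.5-fold higher in B2 against a floor of 3 counts per library. The adjusted p of Hsd3b7 was 0.1 in edgeR, 0.185 in limma-voom and 0.00377 in DESeq2. Of the genes for the receptors' chemokine ligands, Cxcl12, Ccl20 and Ccl21a were at 0 in all libraries. Ccl19 and Ccl21b each had 1 count, in B2 replicate 1. Cxcl13, the ligand of CXCR5, had 110 counts in B1a replicate 1, 9 in B2 replicate 2 and 0 in the other libraries. Only Ccl25, the ligand of CCR9, could be tested, with 0 counts in both B1a libraries and 17 and 37 in B2 (adjusted p = 0.175 in edgeR).

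Among 21 tested receptors of the same kind outside the 10, 3 were higher in B1a and 1 in B2, beside 4.24% and 1.50% of all tested genes. Their median log2 fold change was 1.198 beside -0.03 for all tested genes. Ccr1, a receptor for inflammatory chemokines, had 85.01 and 86.6 CPM in B1a and 4.94 and 9.56 CPM in B2 (log2 fold change 3.55, SE 0.39, adjusted p = 0.00716). Ackr2, which scavenges such chemokines, had 66.6 and 41.2 CPM against 3.64 and 4.13 CPM (3.79, adjusted p = 0.00717), and Gpr55, a lysolipid receptor, 45.1 and 71.8 CPM against 1.56 and 5.02 CPM (4.12, adjusted p = 0.0213). Gpr174, a lysophosphatidylserine receptor on lymphocytes, was the one higher in B2, with 52.1 and 43.5 CPM in B1a and 175 and 203 CPM in B2 (log2 fold change -1.98, adjusted p = 0.00462). Macrophages also carry Ccr1, and the summed macrophage markers given above had larger values in the B1a libraries; their part in this value was not tested. Of 17 further list members too low to test, 3 were at 0 in every library and S1pr2, the remaining sphingosine 1-phosphate receptor of B cells, did not exceed 4.76 CPM.

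Downstream of the receptors most genes did not pass the test in edgeR, as was true of all tested genes, of which 5.74% were called. Gnai2, the main Gi alpha subunit of lymphocytes, had 537 and 526 CPM in B1a and 437 and 399 CPM in B2. Its log2 fold change was 0.35 (SE 0.11, adjusted p = 0.159), and ran from 0.28 to 0.41 with a library left out. Gna13, the alpha subunit that confines germinal center B cells to follicles, had 183 and 235 CPM in B1a and 260 and 277 CPM in B2. Its log2 fold change was -0.36 (SE 0.16, adjusted p = 0.284), and ran from -0.55 to -0.20 with a library left out. Of 18 tested G protein genes 1 was called, Gnb3, a beta subunit, with 343 and 70 counts in B1a and 1 and 0 in B2, a ratio of 568 with a counting interval of 101 to 2.25e+04 that leaves out the spread between replicates. Its adjusted p was 0.0369 in edgeR and 3.15e-06 in DESeq2, and 0.307 in limma-voom, which called 0 of the G protein genes. Of the 7 receptor kinase and arrestin genes 0 passed in edgeR, where 2 had an unadjusted p under 0.05, and 1 passed in DESeq2 and in limma-voom.

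Of 39 tested effectors of migration 2 were higher in B1a and 2 in B2, beside 4.24% and 1.50% of all tested genes. Their median log2 fold change was -0.02 beside -0.03 for all tested genes. Of the 39, DESeq2 called 14, beside 12.8% of all tested genes, and limma-voom called 8, beside 7.26%. Fgd2, a CDC42 exchange factor of leukocytes, had 661 and 523 CPM in B1a and 154 and 177 CPM in B2 (log2 fold change 1.84, adjusted p = 0.00402), and Dock8, another CDC42 exchange factor, had a log2 fold change of 0.65 (adjusted p = 0.0322). Ptk2b, the kinase PYK2 of chemokine signaling, had 156 and 167 CPM in B1a and 628 and 617 CPM in B2 (-1.94, adjusted p = 0.00138). Pik3cg, the catalytic subunit of the phosphoinositide 3-kinase that G beta-gamma activates, had 100.2 and 111 CPM in B1a and 231 and 247 CPM in B2 (-1.18, adjusted p = 0.0101).

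**Figure D5:**
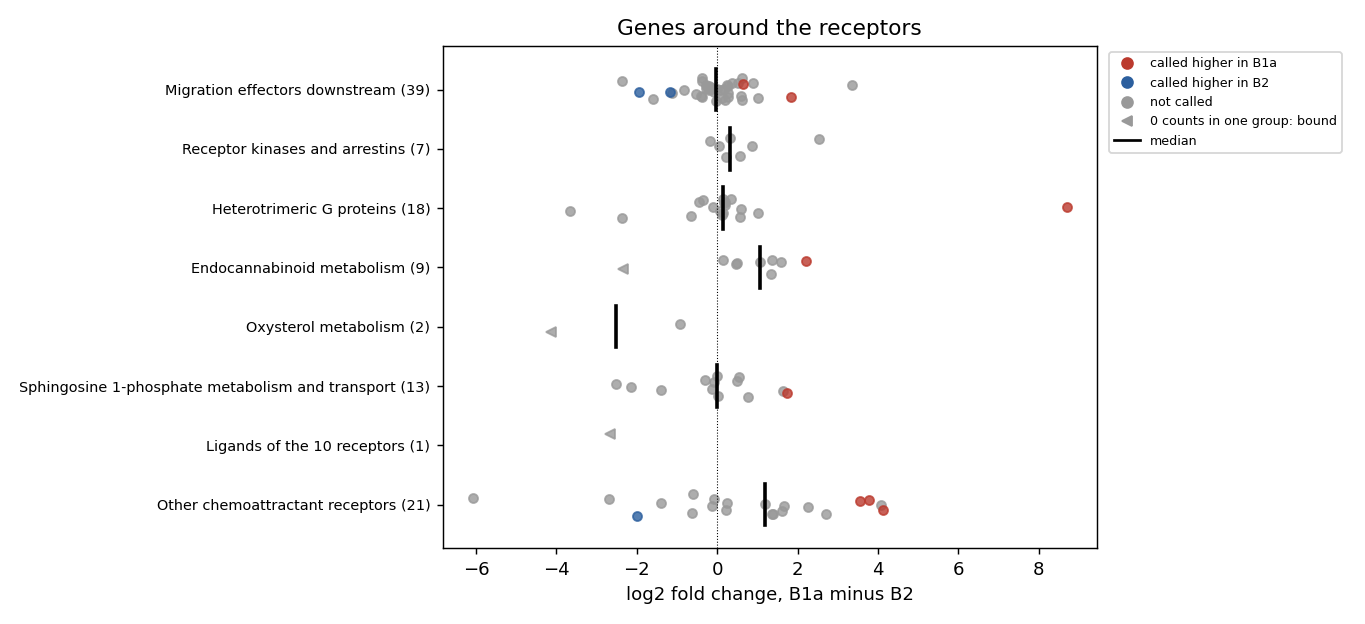
Log2 fold change, B1a minus B2, of the tested genes in 8 lists around the receptors (number tested in parentheses), in red where called higher in B1a, blue where called higher in B2 and gray otherwise, with a black bar at the median. Triangles stand for genes with 0 counts in both B1a libraries and show the smallest difference that a floor of 3 counts allows by counting error alone. The G protein gene at the far right, Gnb3, rests on 1 count in B2.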

How the data were processed

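RNA-Seq of 4 samples was analyzed. By the study's methods, mm10 and the RefSeq annotation were used with RSEM, version 1.25.0 in the methods and 1.2.29 in the submitters' processing notes. The files deposited by the authors list 21970 gene entries with an expected count, where RSEM splits ambiguous reads, TPM, and a signal value, the posterior standard deviation of the count, which was at most 1.16% of the count for any receptor in any library. No receptor gene had several entries, so reads divided among entries of 1 symbol did not touch them; the strand setting is not given in the sources used here.

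After summing to 20599 symbols and rounding, low counts were removed (filterByExpr), TMM factors were applied and edgeR 4.0.16 was run in R 4.3.3 (quasi-likelihood, group only, Benjamini-Hochberg over 12078 genes, threshold 0.05). Standard errors were taken from the F statistic and 95% intervals from the test's degrees of freedom. The methods name EBSeq, which was not run. Replicates are separate mice by the methods. Each receptor, Klf2, Cd69, Gnai2 and Gna13 was named, and up to 3 called genes per list and direction by smallest p. The members and lists were chosen with earlier results of these data known. Alternatives were DESeq2 1.42.0, limma 3.58.1 (voom, log2(TPM + 1), log2(TPM + 0.1)), upper quartile scaling, other filters, entries not summed, a replicate block, a fold minimum and each library left out. Promoter windows are from RefSeq (GRCm38.p6), in which 7 of 10 receptors were matched; Cxcr5, Ccr7 and S1pr1 are named only. The comparison of receptor proteins was not run. The scripts were tested on simulated data.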

Additional observations from a re-analysis of the deposited data

How the results depend on the processing

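Over 10 alternatives with all 4 libraries, Cxcr5, Cxcr4 and Cnr2 passed the threshold in 10, and Ccr6 and S1pr1 in 9; these 5 also passed with any 1 library left out, where the lone library of a group is assumed to vary like the other group. The number of receptors higher in B1a was 2 and became 1 with a log2 fold change minimum of 1, and 2 to 4 with a library left out (4 without B1a replicate 1, as Ccr9 and Gpr183 were added). The log2 fold change of Ccr7, 0.15, turned to -0.10 on both log2(TPM + 1) and log2(TPM + 0.1), and ran from -0.0185 (without B1a replicate 1) to 0.294 with a library left out, and that of S1pr4, 0.09, to -0.16 on both TPM scales and from -0.0049 (without B1a replicate 1) to 0.168; the cause was not tested. With the other chemoattractant receptors in the denominator the share of Cxcr5 fell from 42.2% to 32.4% in B1a and from 18.8% to 14.7% in B2, and that of Cxcr4 in B2 from 25.8% to 20.2%, by construction.

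Counts of calls depended on the method more than the receptor values did. The lists around the receptors had 8 genes higher in B1a, which became 18 in DESeq2, 13 without a filter and 5 on log2(TPM + 0.1), and 3 higher in B2, which became 11 in DESeq2. All tested genes had 512 higher in B1a, against 1004 in DESeq2, 779 without a filter, 266 on log2(TPM + 1) and 196 on log2(TPM + 0.1), and 181 higher in B2, against 546 in DESeq2, 278 in limma-voom, 279 with at least 10 counts in every library and 362 without a filter. With a library left out the list counts ran from 7 to 36 in B1a and from 4 to 32 in B2, and those of all genes from 394 to 2787 and from 144 to 3356; the high ends came without B1a replicate 1 (33, 21, 2050 and 1903) or 2 (36, 32, 2787 and 3356), when the spread is taken from the closer B2 replicates. With DESeq2 12.8% of tested genes were called, and 48.9% without B1a replicate 2.

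The replicate block gave 15 and 10 list genes and 889 and 592 of all tested genes, higher in B1a and B2. Same-numbered B1a and B2 samples share only a number, and their deviations correlated at -0.0347. The receptor with the fewest counts in a library was Ccr6, with 47 in B1a replicate 1.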
